A study of Mus musculus with 8 samples.

Results

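The genes described here encode the nuclear subunits of respiratory complexes III, IV and V and the electron carrier between the first 2 of them, measured in hearts of mice with and without a Carns transgene. The set was chosen by name, as 31 mouse symbols looked up by NCBI Gene number. It held 9 complex III subunits, cytochrome c (Cycs), 6 complex IV subunits, and 15 ATP synthase subunits under their older Atp5 names. The rule took the 6 complex IV subunits as single-form, though Cox6b1 has another form, Cox6b2, counted further on with the other forms. All 31 of 31 were listed, out of 18215 gene numbers in the deposited tables, and all 31 passed the filter on low counts that left 12670 genes. The choice rule uses gene names only, though earlier results of these data were known when it was set.

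Polyadenylated RNA from heart tissue was sequenced in 4 libraries labelled Carns transgenic (TG) and 4 labelled Wild Type (WT). Carns1, the gene named by the transgene, encodes carnosine synthase and lay between 19071 and 24288 counts per 1000000 (CPM) in TG and between 44.5 and 73.3 in WT. The strain, age and sex of the mice and the promoter of the transgene are not given in the sources used here, and neither is the number of animals behind each group, so each p-value measures only the spread between these libraries. Library totals ran from 6261161 to 7897598 estimated counts, and the 12 ventricular cardiomyocyte markers summed to 64222 to 70713 FPKM (fragments per kilobase of gene and 1000000 fragments) in TG and 66984 to 76299 in WT. The 9 adipocyte markers summed to 741 FPKM in TG replicate 2 against 22.9 to 58.9 in the other 7 libraries, with Ucp1, Retn and Elovl3 at 0 in some libraries. Atrial markers, 6 genes, summed to 1213 FPKM in that same library against 90.7 to 351 elsewhere.

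Complex III passes electrons from ubiquinol to cytochrome c, and complex IV, cytochrome c oxidase, passes them on from cytochrome c to oxygen. Both complexes pump protons out of the mitochondrial matrix, and ATP synthase, complex V, lets protons flow back through a ring of c subunits whose rotation drives ATP synthesis in its catalytic head. The heart makes most of its ATP in this way, and its muscle cells are filled with mitochondria. Each of these complexes, except for the mobile carrier cytochrome c, combines nuclear subunits such as those counted here with subunits encoded in mitochondrial DNA.

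Nuclear respiratory genes are known for promoters that bind NRF1, GABP (an ETS-family factor) and YY1, so the promoter windows of the members were searched for 3 short motifs on both strands. RefSeq promoter windows of assembly GRCm38.p6, which run from 250 bases before to 50 bases after an annotated start, were present for 25 of the 31 members. The NRF1 letters (GCGCA, any base, GCGC) were held by 7 of 25 members (28.0%) and by 4.60% of all windows in the table. The ETS letters CCGGAAG were held by 8 members (32.0%, against 8.86% of windows) and the YY1 letters AAGATGGCG by 2 members (8.00%, against 1.40%). At least 1 of the 3 motifs was present in 14 of 25 members (56.0%), compared with 13.6% of all windows. The 25 members had 28 windows between them, and a motif in any window of a gene was counted, while the share over the table is per window. Counted per window, 14 of the 28 member windows held at least 1 motif. The windows of the table were not matched to the members in GC content or transcript level, and the part of either was not tested. The NRF1 letters are nearly the same on both strands, so a single stretch can match in both directions. A match describes letters in this window and is not a binding site, and a window without a match says nothing about the factor. Shown here are some of the members described in detail further on that hold a motif. They are given as the 250 bases before the start of Atp5g2, Uqcr11 and Atp5k and a stretch of 30 bases after the start of Atp5g3. All are read 5′ to 3′ on the strand of the gene, with the motif in capitals. The windows of Atp5b, Atp5d, Atp5g1, Cox5b, Cox7b and Cycs, which are described in the same detail, held none of the 3 motifs and are not printed. Atp5e, also described in detail, held the ETS letters 102 bases before the start and is not printed. For Uqcrq and Uqcrb no window was present.
Atp5g2 (c subunit, NRF1 letters, chr15:102671048-102671297, minus strand): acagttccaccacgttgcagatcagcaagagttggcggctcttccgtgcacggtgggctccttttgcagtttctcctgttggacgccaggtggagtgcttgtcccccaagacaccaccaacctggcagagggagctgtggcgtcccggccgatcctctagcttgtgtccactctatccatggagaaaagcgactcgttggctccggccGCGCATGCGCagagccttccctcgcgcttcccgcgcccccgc
Uqcr11 (complex III, ETS letters, chr10:80406822-80407071, minus strand): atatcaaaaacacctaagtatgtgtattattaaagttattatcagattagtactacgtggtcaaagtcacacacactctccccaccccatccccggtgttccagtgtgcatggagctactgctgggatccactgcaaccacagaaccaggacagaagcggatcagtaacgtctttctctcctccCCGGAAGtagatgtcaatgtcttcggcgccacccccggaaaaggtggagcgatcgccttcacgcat
Atp5k (subunit e, NRF1 letters, chr5:108434400-108434649, minus strand): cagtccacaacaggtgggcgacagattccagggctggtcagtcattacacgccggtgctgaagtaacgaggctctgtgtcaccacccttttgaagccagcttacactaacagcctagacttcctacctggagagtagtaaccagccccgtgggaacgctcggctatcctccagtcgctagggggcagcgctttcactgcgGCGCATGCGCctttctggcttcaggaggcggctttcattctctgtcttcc
Atp5g3 (c subunit, NRF1 letters, chr2:73911295-73911324, minus strand): gagccgcaccGCGCTTGCGCgcccagcccc
The NRF1 letters began 42 bases before the start in Atp5g2 and 50 bases before it in Atp5k, and the ETS letters began 66 bases before it in Uqcr11. In Atp5g3 the NRF1 letters began 12 bases after the start, as did the ETS letters in Atp5k, beyond the bases printed for it.

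The members were abundant. Together they took 3.06% to 3.71% of all counts and 5.72% to 6.63% of all FPKM in a library, and no member had fewer than 943 counts in any library. Mean levels over the 8 libraries ran from 295 FPKM for Cycs to 3059 FPKM for Atp5b, the catalytic beta subunit of ATP synthase. Atp5b stood alone at the top. It was the higher member of the 1 pair among the 30 pairs of neighbours in this order whose mean ± SD ranges did not overlap. The next 5 genes were Cox5b at 2146 FPKM, Atp5g1 at 2142, Cox6b1 at 2043, Atp5o at 1879 and Atp5h at 1868, and neighbours among them did not differ beyond their spread. Subunits of 1 complex were thus listed at very unequal mRNA levels. Among the complex III genes, mean levels ran from 394 FPKM for the Rieske iron-sulfur protein Uqcrfs1 to 1752 FPKM for the small subunit Uqcr11, with the core proteins Uqcrc2 at 416 and Uqcrc1 at 1043. In complex IV the range was 318 FPKM (Cox7b) to 2146 FPKM (Cox5b). The 2 proteins that form the alternating catalytic ring of ATP synthase also differed, with alpha, Atp5a1, at 1677 FPKM against 3059 for beta. Gamma, the central shaft, encoded by Atp5c1, stood at 1579 FPKM, and the delta and epsilon subunits at its foot stood at 1224 (Atp5d) and 696 (Atp5e).

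**Figure D1:**
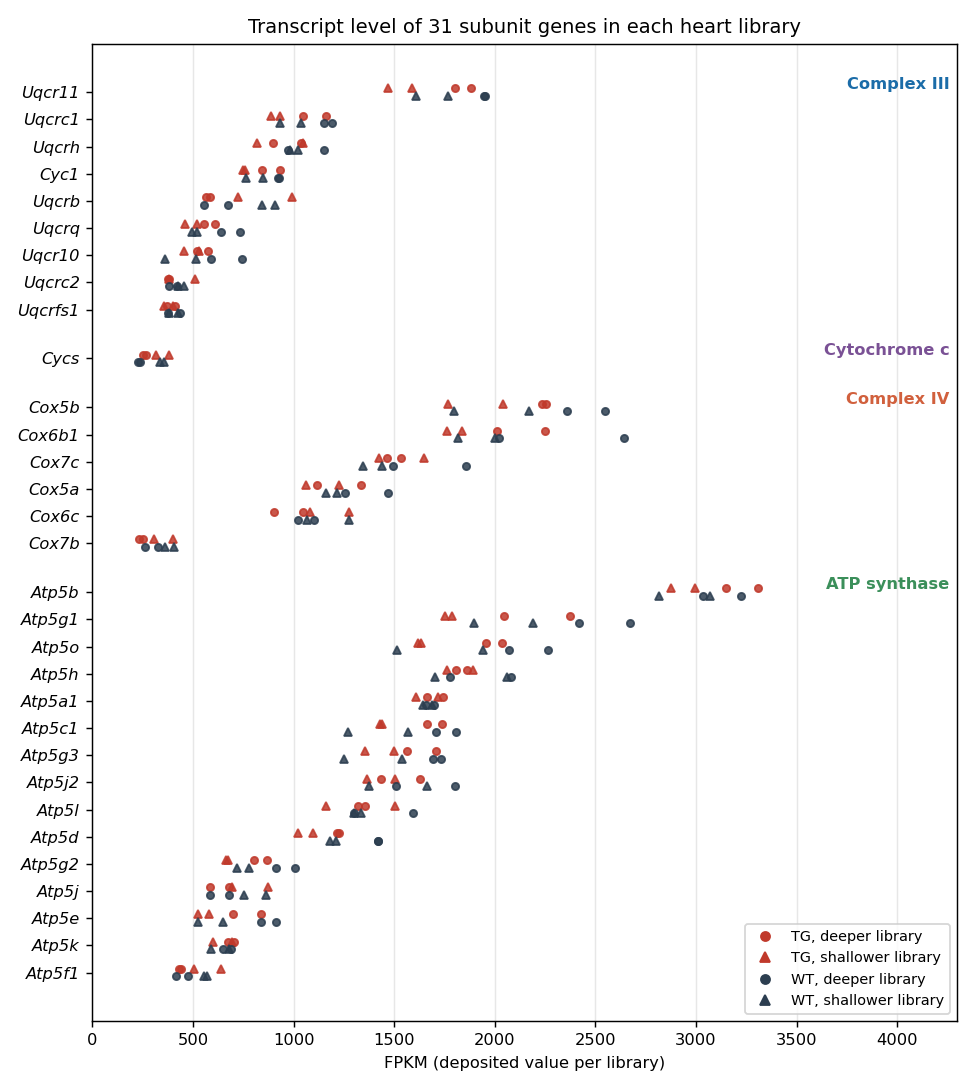
Level of each of the 31 members in FPKM (horizontal axis, linear), with 1 point per library coloured by group (circle deeper, triangle shallower library). Genes are grouped by complex and ordered within each by their mean over 8 libraries. Atp5b leads at a mean of 3059 FPKM, Cycs is lowest at 295, and the points of the TG and WT libraries are interleaved for every gene.

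None of the 31 members differed between TG and WT hearts by edgeR's quasi-likelihood test with Benjamini-Hochberg adjustment, where 2 of 12670 genes (0.0158%) passed. None had an unadjusted p under 0.05 either, a level that 442 of the 12670 genes (3.49%) reached, and none was called by DESeq2. Log2 fold changes of TG relative to WT ran from -0.20 for Atp5g1 to 0.09 for Cycs, with standard errors (SE) from 0.10 to 0.20, and the lowest unadjusted p in the edgeR test was 0.15, for Atp5d. None of the 31 members had TG and WT libraries that did not overlap in CPM, compared with 320 of 12670 genes (2.53%). How large a change could have been missed is given by the intervals: the 95% intervals reached from -0.58 at the lowest (Atp5e) to 0.43 at the highest (Cycs), and 26 of 31 lay wholly within -0.5 to 0.5. The RNA came from bulk heart tissue, where fewer cells of a type and less RNA per cell cannot be told apart.

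Small negative values were the common pattern, with 26 members below 0 and 5 above, a median log2 fold change of -0.07 against -0.0017 over all genes tested, and 50.5% of all genes below 0. The median of the members turned to 0.0051 without WT replicate 2 and to 0.016 with offsets for gene length, and was -0.08 without TG replicate 2, the library with the high adipocyte and atrial marker sums. All 9 complex III genes and all 6 complex IV genes had negative values (medians -0.08 and -0.09), as had 11 of 15 ATP synthase genes (median -0.04), while with length offsets the 3 medians were -0.0072, 0.013 and 0.040. These counts moved as well: 6 of 9, 2 of 6 and 5 of 15 genes were negative with length offsets, and 8, 2 and 4 without WT replicate 2. Over all 31 members, 13 were negative with length offsets and 14 without that library. Complex I subunits, none of them members, gave a median of -0.06 with 30 of 36 negative. The 78 cytosolic ribosomal protein genes, which have no part in respiration, gave -0.13 with 69 negative. Both of these lists had 0 genes past the adjusted threshold in edgeR, so small negative values were shared with genes outside complexes III to V. Within the 4 deeper libraries, 27 members were negative (median -0.11). Within the 4 shallower libraries 19 were negative (median -0.03), and 19 were negative in both classes.

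**Figure D2:**
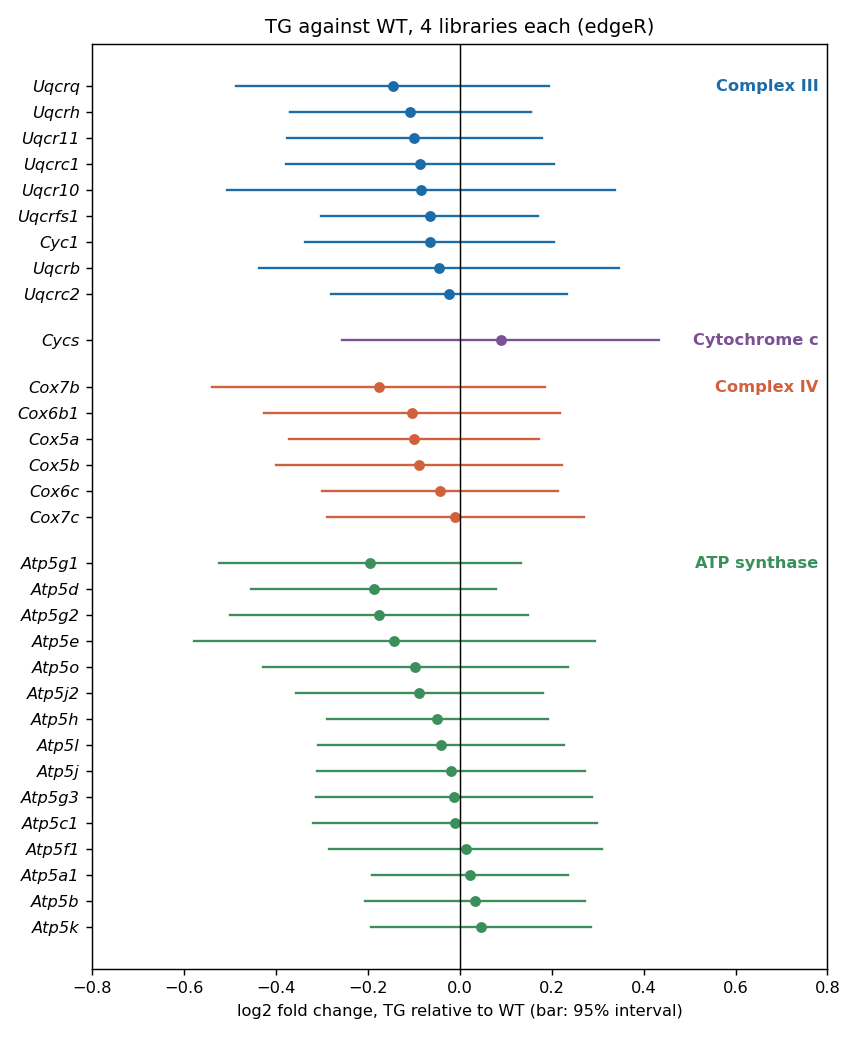
Log2 fold change of TG relative to WT (horizontal axis) for each of the 31 members, grouped by complex, with 95% intervals from edgeR as bars. Every interval includes 0, and the values run from -0.20 (Atp5g1) to 0.09 (Cycs).

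In complex III, the most abundant gene was Uqcr11, which encodes a small subunit. It stood at 1884, 1587, 1804 and 1467 FPKM in TG replicates 1 to 4 and at 1947, 1951, 1769 and 1610.2 in WT replicates 1 to 4. The groups overlapped, with the lowest value in TG replicate 4 and the highest in WT replicate 2. Mean levels were 1686 ± 192 FPKM in TG and 1819 ± 163 in WT (SD, n = 4), and the log2 fold change was -0.10 (SE 0.13, edgeR unadjusted p = 0.45). Uqcrq, another small subunit, had the most negative fold change in this complex. Its levels were 611, 522, 554 and 459 FPKM in the TG libraries and 641, 731, 521 and 493 in the WT libraries. WT replicate 2 was the highest and TG replicate 4 the lowest, and the other 6 libraries were mixed. The log2 fold change was -0.15 (SE 0.16, edgeR unadjusted p = 0.37), with -0.23 within the deeper libraries and -0.03 within the shallower ones. Without WT replicate 2 it was -0.0057 and without TG replicate 4 it was -0.07, while it was -0.24 without WT replicate 4 and -0.22 without TG replicate 1. Uqcrq carried counts that were not whole numbers in 2 of 8 libraries, and its level is uncertain, since how such counts arose was not tested. The other 7 complex III genes had log2 fold changes from -0.11 for the hinge protein Uqcrh to -0.02 for Uqcrc2, with -0.09 for Uqcrc1, -0.07 for cytochrome c1 (Cyc1) and -0.07 for Uqcrfs1.

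Cytochrome c, Cycs, was the least abundant member per length and had the only log2 fold change above 0.05. Its levels were 250.2, 378, 267 and 316 FPKM in TG replicates 1 to 4 and 225, 235, 355 and 335 in WT replicates 1 to 4. High values occurred in both groups, in TG replicates 2 and 4 and in WT replicates 3 and 4, and the groups overlapped. TG averaged 303 ± 57.5 FPKM and WT 288 ± 67.2 (SD, n = 4), a log2 fold change of 0.09 (SE 0.16, edgeR unadjusted p = 0.59), which turned to -0.03 without TG replicate 2. Counts of Cycs were whole numbers in 1 of 8 libraries only, and its level is uncertain for the same reason.

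Among the complex IV genes, Cox5b encodes the zinc-binding subunit on the matrix side. Its levels were 2254, 2040.4, 2234 and 1767 FPKM in the TG libraries and 2358, 2547, 2172 and 1795 in the WT libraries. Replicate 4 was the lowest library of each group, and the groups overlapped. This gave a log2 fold change of -0.09 (SE 0.14, edgeR unadjusted p = 0.55). Cox7b, a small membrane subunit, had the most negative fold change of the 6. It stood at 229, 403, 251 and 306 FPKM in TG and at 263, 324, 404 and 360.2 in WT. TG replicate 2 and WT replicate 3 were nearly level at the top, and TG replicates 1 and 3 were the lowest. The log2 fold change was -0.18 (SE 0.17, edgeR unadjusted p = 0.31), with an interval from -0.54 to 0.19. It was -0.35 without TG replicate 2 (edgeR unadjusted p = 0.034, not past the adjusted threshold), the library with the high adipocyte and atrial marker sums, and -0.28 without WT replicate 1. Without TG replicate 1, TG replicate 3 or WT replicate 3 it was -0.08, -0.11 and -0.09. Values for Cox5a, Cox6b1, Cox6c and Cox7c lay between -0.10 and -0.01.

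The catalytic beta subunit of ATP synthase, Atp5b, stood at 3309, 2994, 3151 and 2875 FPKM in TG replicates 1 to 4 and at 3225, 3036, 3070.1 and 2814 in WT replicates 1 to 4. Each group spanned nearly the same range, with replicate 1 highest and replicate 4 lowest in both. The resulting fold change was 0.03 on the log2 scale (SE 0.11, edgeR unadjusted p = 0.77), with an interval from -0.21 to 0.27. Atp5k encodes subunit e, which sits in the membrane part and takes part in joining ATP synthases into dimers. Its levels were 705, 695, 675 and 599 FPKM in TG and 649, 689.8, 679 and 589 in WT. All 8 libraries lay in a narrow band, and replicate 4 was the lowest in each group. The log2 fold change of 0.05 (SE 0.11, edgeR unadjusted p = 0.68) was the highest among the 15 ATP synthase genes. Atp5d, the delta subunit of the central stalk, had the lowest p of all members, and was singled out after its values were seen. It stood at 1223, 1099, 1217 and 1022 FPKM in TG and at 1422, 1418, 1181 and 1212 in WT. WT replicates 1 and 2 were the highest, and WT replicates 3 and 4 lay within the TG range. The log2 fold change was -0.19 (SE 0.12, edgeR unadjusted p = 0.15), with -0.21 in the deeper and -0.15 in the shallower libraries. The remaining ATP synthase genes other than the c subunits had values from -0.14 (Atp5e, epsilon subunit) to 0.02 (Atp5a1, alpha subunit). The peripheral stalk, which holds the catalytic head still, was represented by Atp5o (-0.10), Atp5h (-0.05), Atp5j (-0.02) and Atp5f1 (0.01).

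The c subunit of the rotating ring is encoded by 3 genes, Atp5g1, Atp5g2 and Atp5g3, whose products differ in the leader that directs import and give the same mature protein. Atp5g1 stood at 2373, 1788, 2046 and 1754 FPKM in TG replicates 1 to 4 and at 2419, 2673, 2188 and 1895 in WT replicates 1 to 4. Atp5g2 stood at 866, 672, 803 and 664 FPKM in TG and at 914, 1006, 777 and 719 in WT. For both genes the highest values were in WT replicates 1 and 2, and the groups overlapped. Log2 fold changes were -0.20 (SE 0.15, edgeR unadjusted p = 0.22) for Atp5g1 and -0.18 (SE 0.15, edgeR unadjusted p = 0.26) for Atp5g2. Single libraries moved both values by more than 1.5 times. Atp5g1 was -0.09 without WT replicate 2, -0.13 without TG replicate 4, and -0.30 and -0.29 without TG replicate 1 and WT replicate 4. Atp5g2 was -0.06 when WT replicate 2 was left out, -0.11 without TG replicate 4, and -0.27 when WT replicate 4 was left out. Atp5g3 levels were 1708, 1498, 1562 and 1355 FPKM in TG and 1735, 1695, 1539 and 1248 in WT. Here the lowest library was WT replicate 4, and the group means of 1531 ± 146 and 1554 ± 221 FPKM (SD, n = 4) were within their spread. The log2 fold change of Atp5g3 was -0.01 (SE 0.14, edgeR unadjusted p = 0.93).

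Because the 3 c-subunit genes were measured in the same library, their shares need no scaling for library size. Library effects that differ between genes would remain in the shares. GC content was 56.4% for Atp5g1, 56.6% for Atp5g2 and 50.5% for Atp5g3, and its part in the shares was not tested. The mean share of Atp5g3 was 33.9% over the deeper libraries and 35.1% over the shallower ones. Atp5g3 made up 34.5%, 37.9%, 35.4% and 35.9% of their summed FPKM in TG replicates 1 to 4 and 34.2%, 31.5%, 34.2% and 32.3% in WT replicates 1 to 4. All 4 TG shares were above all 4 WT shares, with means of 35.9 ± 1.4% and 33.1 ± 1.3% (SD, n = 4), a difference of 2.86 percentage points. The exact two-sided permutation test gave p = 0.029, the smallest that 70 splits of 8 libraries allow, and 0.086 after Benjamini-Hochberg adjustment over the 3 genes, which did not pass. With this smallest p, 1 gene alone could not have passed the adjustment over 3 genes. The adjusted result therefore cannot decide whether the share differed. The share of Atp5g1 was 48.0%, 45.2%, 46.4% and 46.5% in TG and 47.7%, 49.7%, 48.6% and 49.1% in WT. TG replicate 1 lay within the WT range, and the other 3 TG libraries lay below it. Its mean difference was -2.27 percentage points (exact permutation p = 0.057, adjusted p = 0.086). For Atp5g2 the means were 17.6 ± 0.5% in TG and 18.2 ± 0.7% in WT (SD, n = 4), a difference of -0.586 points (exact permutation p = 0.20, adjusted p = 0.20). The difference in the Atp5g3 share was 2.07 points within the deeper libraries and 3.64 within the shallower ones. Without TG replicate 1, the TG library whose Atp5g1 share lay within the WT range, the adjusted exact permutation p was 0.043 for both Atp5g3 (3.33 points) and Atp5g1 (-2.76 points). Leaving out that library removed the overlap in Atp5g1 by construction. Atp5g3 had no overlap with or without it, and its adjusted p moved because the p of Atp5g1 did. Neither value is thus added support for a difference. The 3 shares are parts of the same sum, so a lower share of Atp5g1 goes with higher shares of the others. These 2 results are therefore not separate. The summed level of the 3 genes was 4272 ± 524 FPKM in TG and 4702 ± 666 in WT (SD, n = 4), which was 1.31 to 1.77 times the level of Atp5b in the same library. The transcripts of Atp5g1 and Atp5g2 share a longest identical run of 21 bases, that of either with Atp5g3 being 11 or 9 bases, and all 3 genes had whole counts in 8 of 8 libraries.

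**Figure D3:**
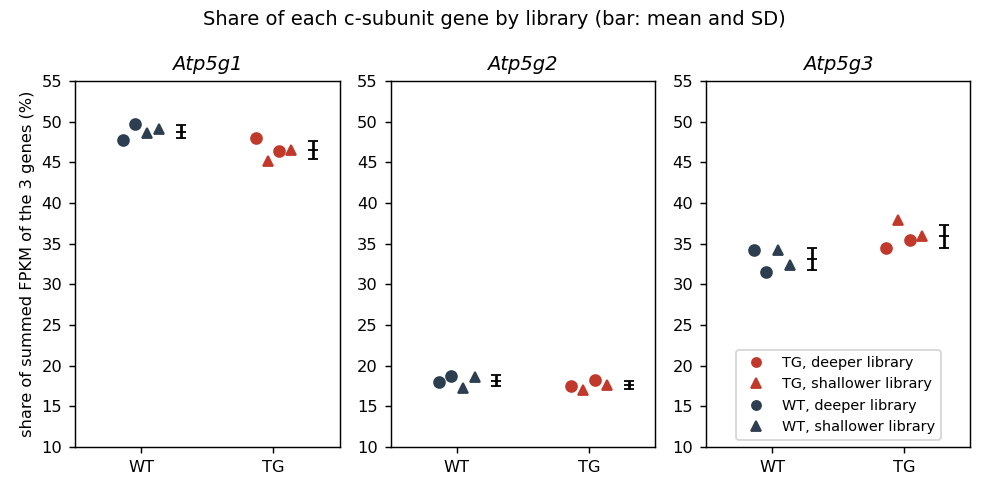
Share of each c-subunit gene in the summed FPKM of Atp5g1, Atp5g2 and Atp5g3 (vertical axis, percent), with 1 point per library (circle deeper, triangle shallower) and the mean and SD of each group beside them. Shares of Atp5g3 are 34.5% to 37.9% in TG and 31.5% to 34.2% in WT, without overlap between the groups.

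The 8 libraries fell into 2 depth classes. TG replicates 1 and 3 and WT replicates 1 and 2 had 7394115 to 7897598 counts, and TG replicates 2 and 4 and WT replicates 3 and 4 had 6261161 to 6557591. Each class holds 2 libraries of each group, and the labels name no batch, so the classes are only a split by total count. In an edgeR fit with group and depth class, 19 of 31 members differed between the classes, against 4078 of 12670 genes (32.2%). Of these 19 members, 15 were lower in the shallower libraries (14.4% of all genes) and 4 were higher (17.8% of all genes). Genes outside the members shared this. The same fit called 21 of 36 complex I subunits, 19 of them lower in the shallower libraries. Of the 78 cytosolic ribosomal protein genes it called 50, with 46 of them lower. CPM values of 16 members did not overlap between the classes, as in 3784 of 12670 genes (29.9%). The median shallower relative to deeper log2 difference of the members was -0.19. Between TG and WT, in the fit with group alone, 0 members passed, where 2 of 12670 genes (0.0158%) did.

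Atp5e, the epsilon subunit, fell the most, and it and Uqcrb were chosen after their values were seen. It stood at 836, 698, 840.0 and 914 FPKM in the deeper libraries (TG 1, TG 3, WT 1, WT 2) and at 580.0, 524, 649 and 524 in the shallower ones (TG 2, TG 4, WT 3, WT 4). All deeper values were above all shallower values, in TG and WT alike. The log2 difference was -0.60 (SE 0.09, edgeR adjusted p = 0.0011). Uqcrb, a small matrix-side subunit of complex III, rose the most. Its levels were 563, 583, 554 and 673 FPKM in the deeper libraries and 993, 725, 907 and 843 in the shallower ones, again without overlap. The log2 difference was 0.48 (SE 0.10, edgeR adjusted p = 0.0058). Cycs rose by 0.43 (SE 0.08, edgeR adjusted p = 0.0023), with 225 to 267 FPKM in the deeper and 316 to 378 in the shallower libraries. Cox7b rose by 0.40 (edgeR adjusted p = 0.014) and the b subunit of the peripheral stalk, Atp5f1, by 0.30 (edgeR adjusted p = 0.022). The c-subunit genes fell together, by 0.39 for Atp5g1, 0.41 for Atp5g2 and 0.32 for Atp5g3, and all 3 passed the edgeR threshold. Uqcr11 fell by 0.31, Cox5b by 0.34 and Uqcrq by 0.41, also past the threshold, while Atp5k had a difference of -0.16 that did not pass (edgeR adjusted p = 0.15). Complex III thus held its largest rise, Uqcrb, beside falls in 5 of its other subunits.

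**Figure D4:**
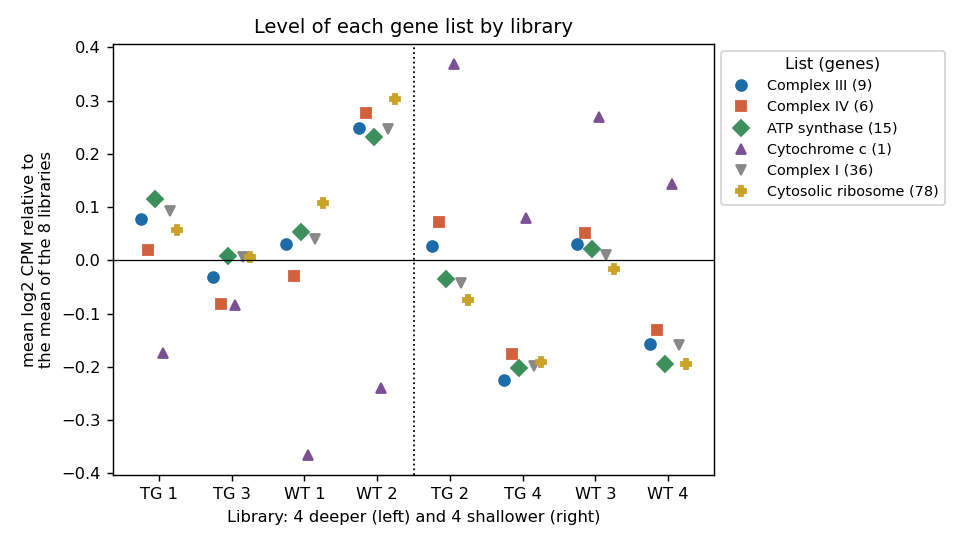
Mean log2 level of each member group and of 2 other gene lists in each library (vertical axis, log2 CPM relative to the mean over 8 libraries), with the 4 deeper libraries left of the dotted line, the 4 shallower ones right of it, and 1 symbol per list. The mean over all members runs from -0.19 (TG replicate 4) to 0.08 (TG replicate 1) in TG and from -0.16 (WT replicate 4) to 0.23 (WT replicate 2) in WT, while Cycs goes the other way between the depth classes.

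By library, the mean log2 level of the 31 members, relative to their mean over the 8 libraries, was 0.08, 0.02, -0.02 and -0.19 in TG replicates 1 to 4 and 0.02, 0.23, 0.04 and -0.16 in WT replicates 1 to 4. WT replicate 2 was the highest library and replicate 4 was the lowest of each group, and the groups overlapped. Complex III, complex IV and ATP synthase followed nearly the same course: WT replicate 2 was the highest library for each, at 0.25, 0.28 and 0.23. The mean of the 36 complex I subunits was also highest there (0.25), as was that of the ribosomal protein genes (0.30).

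GC content of the transcripts moved with the difference between the depth classes. The 7 members with a positive difference had GC contents from 40.8% to 51.3% (median 44.4%), and the 24 with a negative one from 46.7% to 61.1% (median 50.8%). Over the 31 members, which share the same 8 libraries, Pearson's r was -0.71 and Spearman's rho -0.60. Over 12557 genes with a GC value, r was -0.66 and rho -0.71. These are descriptions across genes, which are not independent replicates, and the part of GC content in the differences was not tested. For TG against WT, r over the members was -0.44 and over all genes -0.08, and with offsets for GC content and length the median of the members was 0.0075 instead of -0.07.

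**Figure D5:**
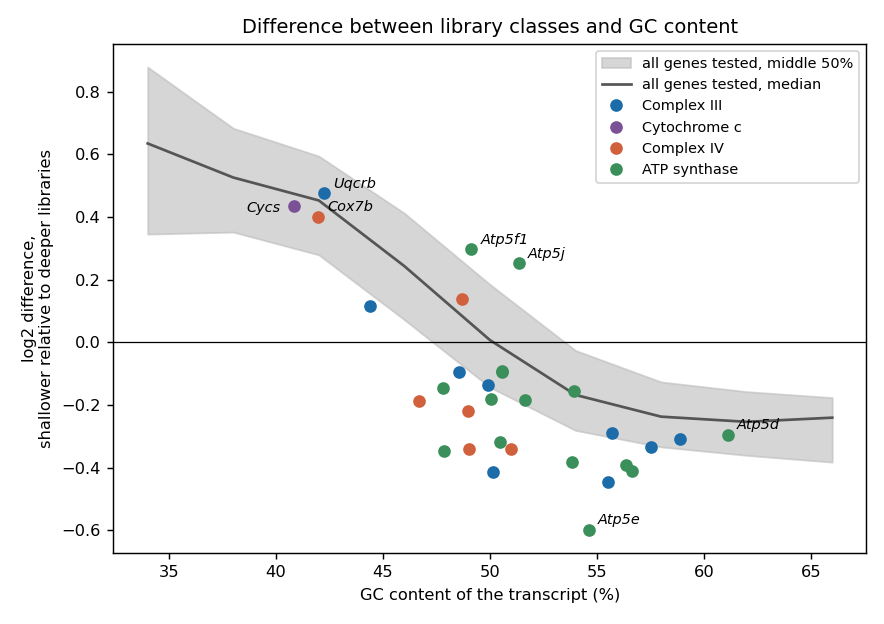
Log2 difference of shallower relative to deeper libraries (vertical axis) against GC content of the transcript in percent (horizontal axis) for the 31 members, with the median (line) and middle 50% (band) of all genes tested behind them. The 7 members above 0 have GC contents from 40.8% (Cycs) to 51.3% (Atp5j), and every member above 51.3% lies below 0.

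With the depth class as a covariate, 28 of 12670 genes (0.221%) differed between TG and WT in edgeR, and none of them was a member. An unadjusted p under 0.05 was reached by 3 of 31 members, compared with 1136 of 12670 genes (8.97%). Atp5d had a log2 fold change of -0.19 in that fit, Atp5g1 -0.20 and Atp5g2 -0.17, with edgeR unadjusted p-values of 0.011, 0.030 and 0.030, and the lowest edgeR adjusted p over the members was 0.40.

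Genes around these complexes were counted from lists. Tissue and other forms of complex IV subunits had 9 of 11 negative values with a median of -0.11, and 0 passed the adjusted edgeR threshold. Cox7a1, the heart and skeletal muscle form of subunit 7a, had a mean of 909 CPM (SD 124) over the TG libraries and 1249 CPM (SD 92.3) over the WT libraries, without overlap between the groups. Its log2 fold change was -0.46 (SE 0.12, edgeR unadjusted p = 0.0018, adjusted p = 0.68). Within the deeper libraries it was -0.40 and within the shallower ones -0.52, and with the depth class as a covariate it passed (edgeR adjusted p = 0.034). In the other 22 settings Cox7a1 did not pass, among them DESeq2 (adjusted p = 0.10). With GC and length offsets its log2 fold change was -0.35 (edgeR adjusted p = 0.29). Cox6a2, the muscle form of subunit 6a and the most abundant gene of that list at 5704 FPKM, had a mean of 3601 CPM (SD 379) against 3917 CPM (SD 749), a log2 fold change of -0.12. Cox4i2, the second form of subunit 4, stood at -0.23 (edgeR unadjusted p = 0.13).

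Assembly factors, which build the complexes and are not part of them, showed no change past the threshold either. The median was -0.02 for 6 complex III factors, with Bcs1l, the chaperone that inserts the Rieske protein, at 0.07, Uqcc3 at -0.11 and Uqcc2 at -0.06. Among 24 complex IV factors, 13 were negative, with Pet100 at -0.25 (edgeR unadjusted p = 0.079), Cox16 at -0.26 (edgeR unadjusted p = 0.082) and the most abundant, Higd2a, at -0.07. In 1 of these factors, Cox15, picked with its values in view, TG and WT did not overlap in CPM, against 2.53% of all genes. Cox15 was higher in TG, at 0.18 (edgeR unadjusted p = 0.11). The 8 genes of the ATP synthase list, which holds assembly factors, regulators and the small subunit Usmg5, had a median of -0.03. Atpif1, the inhibitor that blocks ATP hydrolysis by the synthase, had a mean of 181 CPM (SD 22) in TG libraries against 149 CPM (SD 45). Its log2 fold change of 0.28 was -0.03 within the deeper libraries and 0.61 within the shallower ones. Ppif, the cyclophilin of the permeability transition pore, stood at -0.12 and Usmg5, a small subunit of the synthase, at -0.11. Carriers that move ADP, ATP and phosphate had 5 of 7 negative values, with Slc25a4, the heart form of the adenine nucleotide carrier, at -0.04 and the other form Slc25a5 at 0.21 (edgeR unadjusted p = 0.075), and the outer membrane channel Vdac2 at 0.11. The 8 complex II genes had a median of -0.05, with the iron-sulfur subunit Sdhb at -0.05 and the assembly factors Sdhaf2 and Sdhaf3 at 0.14 and 0.20. In complex I, Ndufa11 was at -0.26 (edgeR unadjusted p = 0.10), Ndufs8 at -0.22 (edgeR unadjusted p = 0.15) and the most abundant subunit gene, Ndufb8, at -0.04. Regulators of mitochondrial genes had 7 of 17 negative values and a median of 0.04, with the coactivator Ppargc1b at 0.23 and the nuclear receptors Ppara at 0.15 and Esrra at -0.01. Each of these lists had 0 genes past the adjusted edgeR threshold.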

How the data were processed

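Polyadenylated heart RNA was sequenced in 4 TG and 4 WT libraries, grouped by their titles. The deposited tables give, per the file headers, an expected count and an FPKM value for each NCBI Gene number. The expected count is the authors' estimated count of reads or fragments per gene, not normalized. Deposited FPKM values were computed by the authors per kilobase of gene and 1000000 fragments. Per the submitters' processing notes, the tool Bowtie2 and the mouse build mm8 had a part, with no role or version stated; the counting program and its use of strand are not given in the sources used here. Genes not listed in a library were taken as 0.

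Numbers were matched to symbols through the NCBI gene table of assembly GRCm38.p6, which was used for names only (18174 of 18215 matched); Atp5f1 and a few other old symbols were matched as synonyms. Each library listed 15877 to 16109 genes. Expected counts were rounded and tested with edgeR 4.0.16 (R 4.3.3): filterByExpr (minimum count 10, minimum total 15), TMM scaling, the quasi-likelihood F-test with group alone, two-sided, and Benjamini-Hochberg adjustment over all genes tested at 0.05. The SE is the absolute log2 fold change over the square root of F. Alternatives used DESeq2 1.42.0 and limma 3.58.1, among others. A count of 3 corresponds to 0.386 to 0.476 CPM, and covers counting error only.

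GC content is that of the GENCODE M21 transcript nearest in length to the deposited gene length. Whole counts were judged within 0.005: 27 of 31 members were whole in all 8 libraries, while Cycs, Atp5j2, Cox7c and Uqcrq were not, and whether these 4 share reads with other features was not tested.

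Values in every library are given for the most abundant member of each complex, the members with the most positive and most negative fold change in it, and the 3 c-subunit genes. From other lists, the most abundant gene and the 2 of lowest unadjusted p were named; Atp5d, Atp5e, Uqcrb and others stated as such were picked with their values in view. The members and lists were chosen with earlier results of these data known, and so was the split by depth, at the largest gap between library totals.

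The pipeline was tested on simulated data for TG against WT, 3 runs of 12559 genes: it found 100% of 4-fold and 83.9% of 2-fold changes, with 22 false among 560 calls. Between libraries of the same group, chi-square over its degrees of freedom was at least 4.29, so none repeated another within sampling noise.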

Additional observations from a re-analysis of the deposited data

Results flagged for a closer look

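In 7 of 116 groups of 4 libraries, over the genes named and all members, 1 library stood far from the other 3 on the CPM scale; chance alone flags about 1 in 20 such groups. Among the members, Uqcrc2 stood at 952 CPM in TG replicate 2 against 698 to 738 in the other TG libraries. Uqcrh stood at 647 CPM in WT replicate 2 against 520 to 526 in the other WT libraries, and Atp5l at 842 there against 643 to 657. Outside the members, TG replicate 2 was the high library for Usmg5, a small ATP synthase subunit (607 CPM, the others 527 to 532), and for Slc25a4 (4446 CPM, the others 3720 to 3762). Vdac2, an outer membrane channel, was high in WT replicate 3 (453 CPM, the others 382 to 389). Sdhaf2, an assembly factor of complex II, was low in WT replicate 1 (45.0 CPM, the others 52.0 to 53.2).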

How the results depend on the processing

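No member passed the adjusted threshold in any of 23 other settings. Over all genes, 2 passed in edgeR as reported, and 15 with DESeq2, 4 without a filter on low counts, 1 with limma on log2(FPKM + 1) or log2(FPKM + 0.1), 1 with length offsets, 59 in the deeper libraries, 4 in the shallower ones, 28 with the depth class as a covariate, 6 with GC and length offsets and 0 without Carns1. The last 2 settings were chosen after seeing the data. Leaving out 1 library in turn gave 1 to 3 calls, and a median of the members from -0.13 (without WT replicate 4) to 0.0051 (without WT replicate 2). Same-numbered TG and WT libraries had correlations of 0.24, -0.28, -0.18 and 0.40. Replicates 1 and 4 were of the same depth class in both groups, and replicates 2 and 3 were not. The signs followed this split, so whether the numbers pair the samples cannot be told from them. With the replicate block, 1 gene was called over all genes, the median of the members was -0.06, and the exact sign-flip p of the c-subunit shares was 0.25 for Atp5g1, 0.38 for Atp5g2 and 0.13 for Atp5g3. With 4 pairs the value of Atp5g3 is the smallest possible, so the sign-flip test could not have passed. Leaving out 1 library moved the share differences between -2.76 and -1.83 points (Atp5g1), -0.889 and -0.388 (Atp5g2) and 2.21 and 3.33 (Atp5g3). Only without TG replicate 1, the TG library whose Atp5g1 share lay within the WT range, did Atp5g1 and Atp5g3 pass. Leaving it out removed that overlap by construction, and shares of the same sum are not separate results.

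Of 781 single-gene fold changes under other settings, 50 had another sign, and for these the cause was not tested. With length offsets the log2 fold changes were 0.0073 for Uqcr11, 0.016 for Cox5b, 0.078 for Atp5g3, 0.052 for Uqcc2, 0.028 for Higd2a, 0.0032 for Usmg5, 0.021 for Slc25a4, 0.017 for Sdhb and 0.056 for Ndufb8. With GC and length offsets they were 0.038 for Uqcr11, 0.056 for Atp5g3, 0.085 for Uqcc2, 0.028 for Higd2a, 0.011 for Slc25a4, 0.030 for Sdhb, 0.068 for Ndufb8 and 0.051 for Esrra. In the shallower libraries they were 0.053 for Atp5g3 and Higd2a, 0.031 for Slc25a4 and 0.018 for Sdhb, and in the deeper ones -0.030 for Atpif1 and 0.010 for Esrra. Leaving out 1 library gave ranges that cross 0: -0.030 to 0.20 for Cycs, -0.19 to 0.011 for Cox5b, -0.019 to 0.080 for Atp5b, -0.017 to 0.11 for Atp5k, -0.12 to 0.06 for Atp5g3, -0.21 to 0.0054 for Cox6a2, -0.19 to 0.02 for Uqcc3, -0.00033 to 0.12 for Bcs1l, -0.18 to 0.045 for Uqcc2, -0.13 to 0.02 for Higd2a, -0.15 to 0.05 for Sdhb, -0.13 to 0.029 for Ndufb8 and -0.10 to 0.061 for Esrra. Without crossing 0, Cox7b ranged from -0.35 to -0.08, Uqcrq from -0.24 to -0.0057, Atp5g1 from -0.30 to -0.09 and Atp5g2 from -0.27 to -0.06. No member had fewer than 943 counts in a library.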
